A study of Homo sapiens with 3 samples.

Results

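The genes described here encode the Wnt ligands, their receptors and the components of the pathway behind them, measured in LNCaP prostate cancer cells after knockdown of the long non-coding RNA HOXD-AS1. Members were chosen by gene symbol, with earlier results of these data known. They are all WNT, FZD, DVL, AXIN, DKK and SFRP genes, the TCF7 family, and LRP5, LRP6, LEF1, CTNNB1, APC, GSK3B, RNF43, ZNRF3, LGR4, PORCN, WLS and NKD1. The rule found 150 probe sets of 54 genes, among 49388 probe sets and 18131 genes with a single-symbol probe set in the whole table. No probe set carried PORCN or TCF7 as its symbol, and WNT3 shared its 2 probe sets with another locus, so these 3 genes are not analysed here. LNCaP is an established human prostate cancer line of luminal type. Every culture received 75 nM siRNA with a lipid carrier for 48 h, in RPMI-1640 without phenol red and with 10% fetal bovine serum. Each of the 3 groups was a single Affymetrix array: a negative control siRNA, and 1 array for either of 2 siRNAs against HOXD-AS1, called siRNA 1 and siRNA 2. With 1 array per group, no difference below has a replicate check or a test, and both siRNA libraries are compared with the same control array.

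In canonical Wnt signalling a secreted, lipid-modified WNT protein binds a frizzled (FZD) receptor together with the co-receptor LRP5 or LRP6. The signal passes through the dishevelled (DVL) proteins and stops a complex of APC, AXIN and GSK3B from marking β-catenin, the product of CTNNB1, for destruction. Stabilised β-catenin then enters the nucleus and activates genes together with LEF1 and the TCF7 family. In the prostate the pathway acts in epithelial development and growth.

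The sequences that define the groups are the siRNA strands given in the labels, 21 bases each, shown 5′ to 3′ with the last 2 bases in capitals.
Control siRNA: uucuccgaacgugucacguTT
HOXD-AS1 siRNA 1: gaaagaaggaccaaaguaaUU
HOXD-AS1 siRNA 2: gcccuuucugaccugcuuaUU
HOXD-AS1 is now named HAGLR, a symbol with 0 probe sets in the annotation, and the targeted transcript was not analysed here. The labels give inhibition rates of 0.23 for siRNA 1 and 0.25 for siRNA 2 relative to 1 in the control, without saying how they were measured, and they describe the target position by the coding sequence of WDR5. The source labels read LNCaP for the control, LNCaP-Bic for siRNA 1 and LNCaP-AI for siRNA 2, while the cell line label reads LNCaP throughout. A difference between such cells and a difference due to the siRNAs cannot be told apart. This holds for each siRNA against the control and for the siRNAs against each other.

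The 3 arrays had nearly the same distribution of intensities, with medians of 26.1, 25.7 and 26.1 in the order control, siRNA 1, siRNA 2. The 8 luminal markers with a probe set used here were all above the median of all table values, with summed intensities of 13586, 14434 and 12297 in control, siRNA 1 and siRNA 2. Within that list ACP3 was higher (190.5, 445 and 664) and SLC45A3 lower (231, 123 and 157) with both siRNAs. Of the markers of other cell types, 1 of 2 basal, 1 of 5 other prostate line, 2 of 6 stromal, 1 of 4 leukocyte and 1 of 3 neuroendocrine genes with a probe set were above that median. The other prostate line marker above it was VIM, at 660, 593 and 735, while CD44, CAV1, AXL and TGFBI were below it on every array. The summed intensity of the stromal markers, as deposited, was 114, 161 and 228, a difference that lay in ACTA2 (41.7, 92.9 and 150.0), while COL1A2, DCN, LUM and PDGFRB stayed below the median of all table values. The part of these marker differences in the results below was not tested.

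The median of all table values, an intensity of 26.0, served as a floor for lower values. Each gene is represented by its brightest probe set on average, and counts as measured where that probe set exceeded the floor on at least 1 array. This is not a detection call, and intensities of different probe sets are not amounts of transcript that can be set against each other. Intensities are listed in the order control, siRNA 1, siRNA 2, and differences in the order siRNA 1, siRNA 2. In all, 33 of the 54 member genes (61.1%) were measured, close to the 62.2% of all genes. Of these, 29 were above the floor on all 3 arrays and 4, WNT6, FZD3, LGR4 and TCF7L1, on only some. By probe set, a smaller share of members than of the whole array exceeded the floor. In the control 59 of 150 (39.3%) were above the floor, with siRNA 1 57 (38.0%) and with siRNA 2 54 (36.0%), against 49.9% to 50.1% of all probe sets. The 21 genes below the floor on every array read between 3.89 and 24.9. They were WNT1, WNT2, WNT3A, WNT4, WNT5B, WNT7A, WNT8A, WNT8B, WNT9A, WNT9B, WNT11 and WNT16, the inhibitors DKK1, DKK2, DKK4, SFRP1, SFRP2, SFRP4 and SFRP5, the receptor FZD10 and the feedback gene AXIN2.

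**Figure D1:**
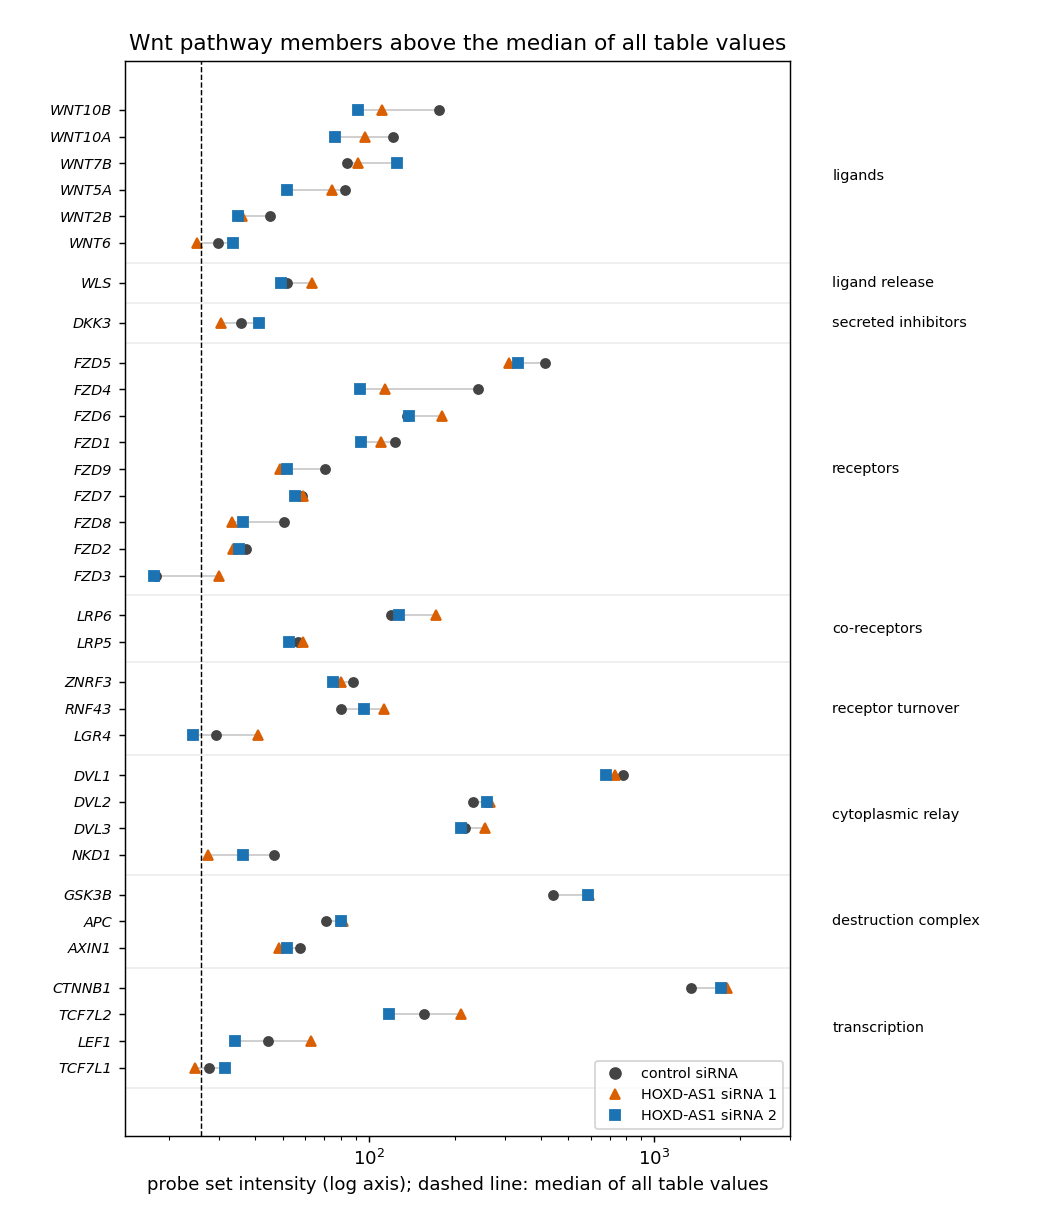
Intensities (log axis) of the 33 measured members on the 3 arrays, 1 probe set per gene, grouped by role; circles are the control, triangles siRNA 1 and squares siRNA 2, and the dashed line is the median of all table values, 26.0. FZD4 shows the widest distance between the control (241) and both siRNA arrays (114 and 93.1), and CTNNB1 reads 1349 to 1801.

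FZD4 was the only member at least 2-fold from the control, and it was lower with both siRNAs. At that threshold 1 of 33 measured members was lower with siRNA 1, where the background over 11286 measured genes was 1.76%, and 1 was lower with siRNA 2, against 0.603%. The same gene was 2-fold or more lower with both, where 0.0797% of measured genes were. No member was 2-fold or more higher, against a background of 1.36% with siRNA 1, 0.789% with siRNA 2 and 0.319% with both. At 1.5-fold, FZD4, FZD8, NKD1 and WNT10B were lower with siRNA 1 (4 of 33, background 6.16%) and FZD4, WNT10A, WNT10B and WNT5A with siRNA 2 (4 of 33, background 4.67%). FZD4 and WNT10B were 1.5-fold or more lower with both siRNAs, where 1.52% of measured genes were. No member was 1.5-fold or more higher with siRNA 1, siRNA 2 or both, against backgrounds of 6.90%, 4.75% and 1.83%. In both libraries 27 of 33 members (81.8%) lay within 1.5-fold of the control, near the 81.1% of all measured genes.

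With siRNA 1 the measured members split evenly, 17 lower and 16 higher than the control, and with siRNA 2 there were 21 lower and 11 higher. Of 33 measured members, 14 (42.4%) were lower in both siRNA libraries, against 32.1% of all measured genes, and 8 (24.2%) were higher in both, against 34.3%. Another 10 went opposite ways and 1, FZD3, showed no difference above the floor with siRNA 2. The median log2 difference of the members was -0.09 with siRNA 1 and -0.11 with siRNA 2, beside 0.00 and 0.01 over all measured genes. With the floor at the 75th percentile, which left 14 members, the siRNA 1 median was 0.10.

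**Figure D2:**
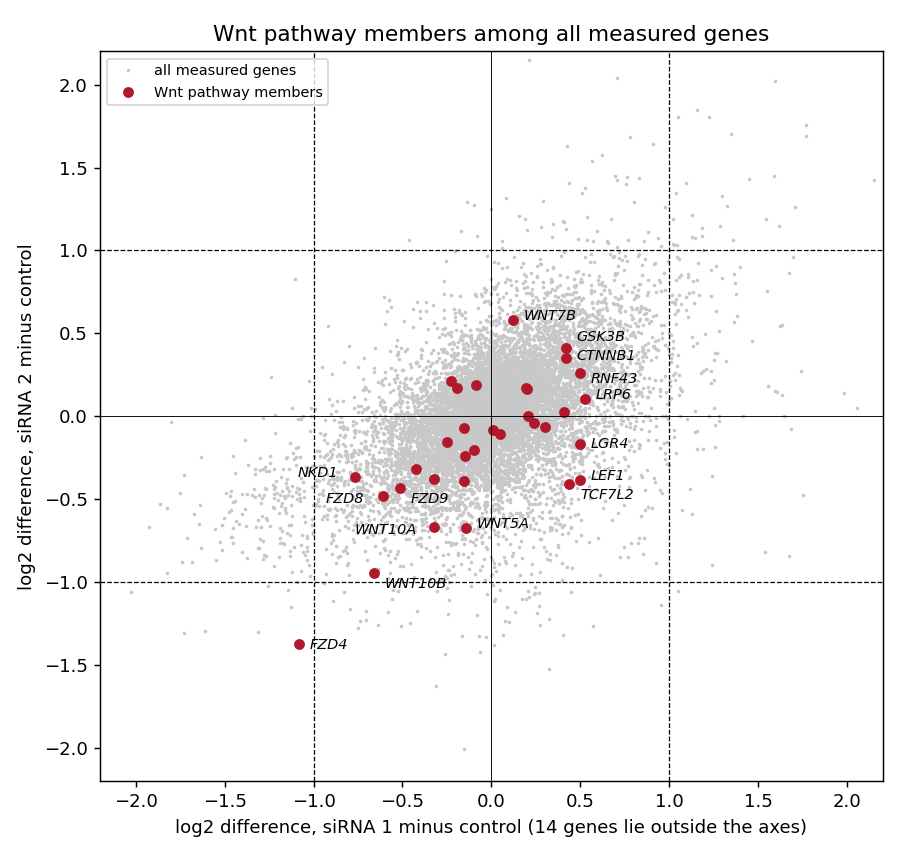
Log2 difference from the control with siRNA 1 (horizontal) and siRNA 2 (vertical) for the 33 measured members (red) over all 11286 measured genes (grey, 14 outside the axes); dashed lines mark 2-fold. Both axes share the control array. FZD4 lies alone beyond both lower lines at -1.08 and -1.37, with WNT10B next at -0.66 and -0.95.

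Among the ligands, those of the WNT10 pair read lower with both siRNAs. Of 18 ligand genes 6 were measured, where 62.2% of all genes were, and 4 of the 6 were lower in both libraries, against 32.1% of all measured genes, with role medians of -0.26 and -0.52. WNT10B, a canonical ligand known from hair, bone and mammary development, read 176, 112 and 91.5, log2 differences of -0.66 and -0.95. Its paralog WNT10A read 122, 97.3 and 76.5, differences of -0.32 and -0.67. In both genes the control array was the highest and siRNA 2 the lowest. WNT5A, which mainly signals without β-catenin and guides cell polarity and movement, read 82.4, 74.6 and 51.7, so only the siRNA 2 array stood well below the control (-0.67). Its 4 other probe sets read 5.53 to 10.2 and were below the floor. WNT2B read 45.2, 36.1 and 34.8. WNT7B went the other way, with 84.2, 91.4 and 126.0, a difference of 0.58 for siRNA 2. WNT6 stayed next to the floor at 29.6, 25.1 and 33.4.

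Ligand release and secreted inhibition were represented by 1 measured gene each. WLS, the carrier that takes WNT proteins to the cell surface, read 51.7, 63.6 and 49.3. DKK3, a divergent member of the Dickkopf family, read 35.7, 30.4 and 41.3. In these brightest probe sets the siRNA arrays lay on opposite sides of the control in both genes. The other measured probe set of DKK3, near the floor, read 28.4, 20.9 and 25.4, below the control in both libraries. The other measured WLS probe sets, also near the floor, read 27.4, 27.4 and 25.6, and 23.6, 29.9 and 18.8.

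FZD4 encodes a frizzled receptor that binds WNT proteins and also Norrin, a ligand that is not a WNT, and it is known for its part in retinal vessel growth. Its 3 probe sets gave different views. Probe set 11719012_at, which the annotation pairs with a RefSeq transcript, read 241, 114 and 93.1. Both siRNA arrays were far above the floor and well below the control, by 2.11-fold and 2.59-fold, or -1.08 and -1.37 on the log2 scale. Probe set 11719013_at read 5.93, 8.06 and 7.22, and 11719014_s_at read 8.93, 9.18 and 6.0. Neither exceeded the floor on any array, so they carry no usable difference, and the FZD4 result rests on 1 probe set. Counted from the lowest of 11286 measured genes, the difference of FZD4 ranked 159 with siRNA 1 and 7 with siRNA 2. When the 3 probe sets were averaged after the floor, the differences were -0.36 and -0.46 and FZD4 was no longer 2-fold lower. In a culture measured in bulk, fewer cells with a transcript and less transcript per cell cannot be told apart. The partners of the Norrin route were looked up after their values were seen. LRP5, the co-receptor of that route, read 56.7, 58.7 and 52.6. NDP, the gene of Norrin, read 11.3, 16.0 and 15.5, and both probe sets of TSPAN12, a tetraspanin of the receptor complex, read 2.85 to 4.75, so neither gene was above the floor.

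Of the 8 other frizzled receptors measured, 5 read lower in both libraries, against 32.1% of all measured genes, and none by 2-fold. Their median differences were -0.15 and -0.20, and FZD10 was not measured. FZD8 read 50.7, 33.2 and 36.3, differences of -0.61 and -0.48, but its other probe set read 32.6, 26.1 and 32.0 and differed by only -0.03 with siRNA 2. FZD9, with a single probe set, read 70.2, 49.1 and 51.9, differences of -0.52 and -0.43. FZD5 read 415, 309.7 and 333, differences of -0.42 and -0.32, and a second bright probe set gave -0.39 and -0.36. In these 3 genes the siRNA arrays lay close together and below the control. The remaining measured probe sets of FZD5, dimmer at 26.1 to 39.1, differed by -0.20 to 0.12. FZD1 read 123, 111 and 94.2. FZD2 (37.1, 33.4 and 35.2) was nearly level, as was FZD7 in its brightest probe set (58.4, 58.8 and 55.2). A second FZD7 probe set of like brightness read 58.3, 49.3 and 51.6, differences of -0.24 and -0.18. FZD6, whose product can restrain canonical signalling, was higher with siRNA 1 alone, at 136, 181 and 139. FZD3 was above the floor with siRNA 1 alone, at 18.0, 29.9 and 17.8.

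**Figure D3:**
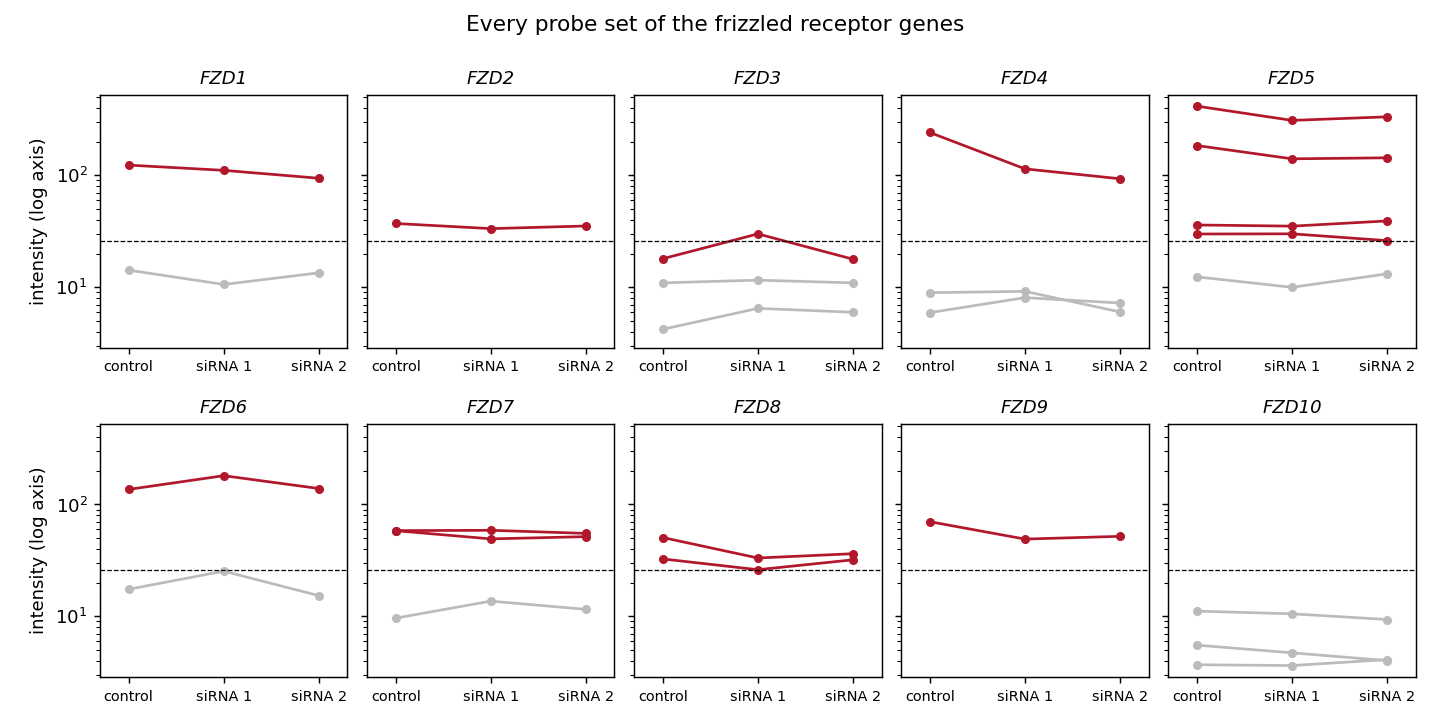
Intensity (log axis) of every probe set of the 10 frizzled genes on the 3 arrays, 1 line per probe set; red lines exceed the median of all table values (dashed, 26.0) on at least 1 array and grey lines on none. In FZD4 the bright probe set runs from 241 down to 114 and 93.1 while both others stay between 5.93 and 9.18.

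Promoter sequences were available for 38 of the 54 member genes, so no composition was computed over the members. Those of FZD4, FZD5, FZD8 and FZD9 are shown because these receptors had the largest mean differences below the control over both siRNAs. Each holds 300 bases of RefSeq sequence (GRCh38.p14), from 250 before to 50 after the annotated start, 5′ to 3′ on the gene's strand. The positions are FZD4 at chr11:86955346-86955645 (minus strand), FZD5 at chr2:207769857-207770156 (minus), FZD8 at chr10:35642247-35642546 (minus) and FZD9 at chr7:73433528-73433827 (plus). Capitals mark matches, on either strand, to the GC box GGGCGG, the CCAAT box CCAAT or the TATA box TATAAA.
FZD4: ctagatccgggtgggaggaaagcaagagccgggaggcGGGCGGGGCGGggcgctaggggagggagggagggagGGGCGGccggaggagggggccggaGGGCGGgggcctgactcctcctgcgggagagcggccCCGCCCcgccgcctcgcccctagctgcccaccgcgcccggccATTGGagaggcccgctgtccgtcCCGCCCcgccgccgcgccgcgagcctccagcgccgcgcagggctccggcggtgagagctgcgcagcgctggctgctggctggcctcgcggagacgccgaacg
FZD5: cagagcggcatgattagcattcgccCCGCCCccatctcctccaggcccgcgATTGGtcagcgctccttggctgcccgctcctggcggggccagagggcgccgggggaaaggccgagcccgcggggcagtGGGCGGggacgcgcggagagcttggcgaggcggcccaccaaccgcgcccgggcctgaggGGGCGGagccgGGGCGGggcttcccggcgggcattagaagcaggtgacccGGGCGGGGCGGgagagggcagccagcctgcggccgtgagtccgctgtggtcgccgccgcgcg
FZD8: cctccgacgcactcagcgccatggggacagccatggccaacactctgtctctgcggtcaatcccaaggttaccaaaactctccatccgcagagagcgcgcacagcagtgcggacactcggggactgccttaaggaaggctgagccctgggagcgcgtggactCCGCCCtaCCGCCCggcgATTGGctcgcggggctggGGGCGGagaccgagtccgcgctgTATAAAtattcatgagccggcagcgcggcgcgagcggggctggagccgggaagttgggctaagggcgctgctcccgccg
FZD9: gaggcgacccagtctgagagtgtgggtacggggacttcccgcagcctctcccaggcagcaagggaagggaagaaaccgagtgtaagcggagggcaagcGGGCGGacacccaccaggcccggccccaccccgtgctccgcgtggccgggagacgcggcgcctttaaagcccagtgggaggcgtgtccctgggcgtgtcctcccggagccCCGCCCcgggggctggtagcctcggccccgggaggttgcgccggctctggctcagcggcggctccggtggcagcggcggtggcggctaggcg
All 4 were rich in G and C, 79.7% in FZD4, 77.0% in FZD5, 67.0% in FZD8 and 73.7% in FZD9, where the median of 35116 promoters of that length was 58.7%. The GC box matched 6 times in FZD4, counting overlaps, 6 times in FZD5, 3 times in FZD8 and 2 times in FZD9, and 45.0% of all promoters held at least 1. A CCAAT box was found in FZD4, FZD5 and FZD8 (34.6% of all promoters) and a TATA box in FZD8 alone among these (11.5%). The TCF/LEF sequence CTTTGAT (2.62% of all promoters) and the androgen receptor hexamer AGAACA (14.8%) were also searched and matched none of the 4. Members that were not lower with both siRNAs also had G and C contents of this order, such as LRP5 (86.7%) and CTNNB1 (74.0%, with 3 GC boxes), as did DVL1 (82.7%, with 6), which was lower by 0.20 or less. FZD1, not shown, was also lower in both libraries (-0.16 and -0.39), with siRNA 2 by more than FZD5. It had 65.7% and 1 GC box. These matches describe letters in the window and not factor binding.

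Co-receptors and the proteins that set receptor number differed in both directions. LRP6 read 119, 172 and 128, a difference of 0.52 with siRNA 1, while a dimmer probe set differed by 0.03 and, with siRNA 2, by -0.35. RNF43, a ubiquitin ligase that removes frizzled receptors from the surface, read 80.2, 113 and 96.2, differences of 0.50 and 0.26. A second probe set gave 0.51 and 0.31 and the remaining measured probe set -0.12 and -0.11. Its relative ZNRF3 read 88.5, 79.8 and 74.9, slightly lower in both libraries. LGR4, the R-spondin receptor that counters both ligases, read 29.2, 41.1 and 24.2, above the floor in the control and with siRNA 1 only.

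Of the cytoplasmic relay and destruction complex genes, NKD1 read lower and GSK3B higher with both siRNAs, while the dishevelled and scaffold genes differed by less. In their brightest probe sets the dishevelled genes DVL1 (781, 729.9 and 678), DVL2 (232, 267 and 261) and DVL3 (217, 256 and 211) stayed within a log2 difference of 0.24 of the control. A second DVL2 probe set differed by 0.28 and 0.02. Both further measured DVL3 probe sets held identical values on every array and count as a single measurement. NKD1, a feedback inhibitor that binds dishevelled, read 46.7, 27.4 and 36.2, differences of -0.77 and -0.37. Its other measured probe sets, near the floor, gave -0.18 to 0.09 for siRNA 1 and -0.18 to 0.14 for siRNA 2, so 2 of the 3 measured probe sets were lower with both siRNAs and the remaining one was not. GSK3B, the kinase that phosphorylates β-catenin, read 442, 591 and 588, differences of 0.42 and 0.41, with 0.05 and 0.36 in the remaining probe set. The scaffold genes went opposite ways by small amounts, APC at 71.0, 81.3 and 80.0 and AXIN1 at 57.5, 48.4 and 51.7. AXIN2, which β-catenin itself induces, was below the floor on every array, with its brightest probe set at 19.9, 21.1 and 22.3.

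Among the genes of the transcription step, CTNNB1 was higher with both siRNAs in its brightest probe set, and TCF7L2 and LEF1 separated the siRNAs. CTNNB1 read 1349, 1801 and 1720.1, differences of 0.42 and 0.35. Its 7 other probe sets differed by -0.12 to 0.30 and -0.16 to 0.14, so the higher reading was not shared across the gene. TCF7L2, a main partner of β-catenin in epithelial cells, read 156, 211 and 117, above the control with siRNA 1 (0.44) and below it with siRNA 2 (-0.41). With siRNA 2 all 3 measured probe sets were lower, by -0.45 to -0.37. With siRNA 1 both dimmer ones were level, at -0.03 and -0.02. LEF1 read 44.4, 62.7 and 34.0, differences of 0.50 and -0.38, on 1 of 9 probe sets, since the 8 others read 3.26 to 11.9. TCF7L1, which often represses Wnt target genes, read 27.6, 24.7 and 31.4, close to the floor.

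Between the siRNA libraries no member was 2-fold or more apart. The background was 0.656% of measured genes lower and 1.56% higher with siRNA 1 than with siRNA 2. The log2 difference between siRNA 1 and siRNA 2 was largest for LEF1 (0.88), TCF7L2 (0.85) and LGR4 (0.66), all higher with siRNA 1 and past 1.5-fold, 3 of 33 where 6.52% of measured genes were, while none was past it the other way (4.87%). For FZD4 it was 0.29, within the spread of 0.30 between these arrays over all measured genes (scaled median absolute deviation).

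**Figure D4:**
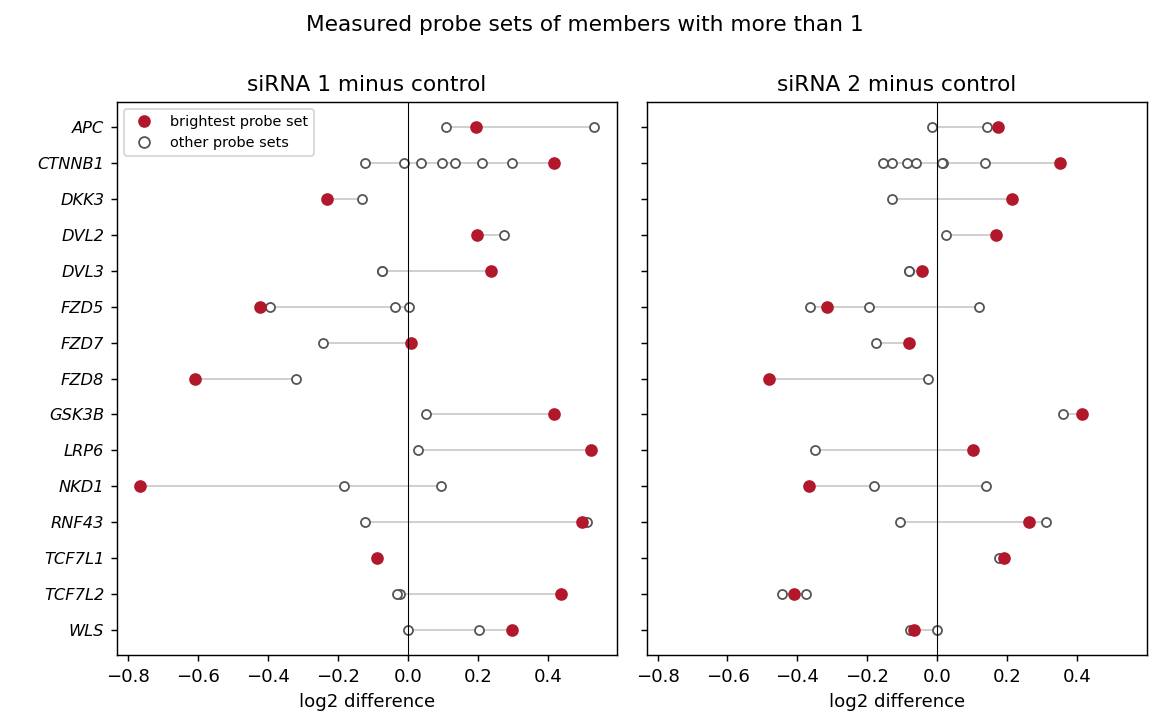
Log2 difference from the control for every measured probe set of the 15 members with more than 1, with siRNA 1 (left) and siRNA 2 (right); filled points are the brightest probe set, which stands for the gene, and open points the others. All probe sets lay on the same side of 0 in 7 genes with siRNA 1 and 7 with siRNA 2, and in 4 genes with both.

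Probe sets of a gene often disagreed at these sizes. In 15 members with more than 1 measured probe set, all of them had the same sign in 7 genes with siRNA 1 and in 7 with siRNA 2. They agreed in sign within each library in DVL2, FZD8, GSK3B and TCF7L1, that is 4 of 15. Both measured TCF7L1 probe sets held identical values in the control and with siRNA 1, and 31.4 and 31.2 with siRNA 2, so they are not independent measurements.

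The list of pathway genes outside the members held 64 genes, such as casein kinases, co-activators, R-spondins and planar polarity genes, of which 50 were measured. None was 2-fold or more from the control in either library, 27 exceeded the control in both libraries and 6 were below it in both, with medians of 0.15 and 0.14. Over all measured genes 34.3% were above the control in both and 32.1% below, with 1.36% and 1.76% past 2-fold with siRNA 1 and 0.789% and 0.603% with siRNA 2. CDH1, the gene of E-cadherin, which holds β-catenin at cell junctions, had the highest mean difference, with 1157, 1867 and 2046 (0.69 and 0.82). Its other measured probe set, near the floor, differed by -0.05 and 0.10. CTBP1, a transcriptional co-repressor, had the lowest, at 1022, 773 and 952, and its 3 other probe sets were lower by more (-0.69 to -0.58 and -0.39 to -0.34).

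Genes known as Wnt targets in other tissues were higher with siRNA 1 in part. Of 26 listed genes 19 were measured, 11 of them above the control with each siRNA and 4 below it with each, with medians of 0.37 and 0.17. Over all measured genes 34.3% were higher in both and 32.1% lower. With siRNA 1, 3 were 2-fold or more higher and 1 lower, against 1.36% and 1.76% of all measured genes. With siRNA 2 none was either, against 0.789% and 0.603%. MMP7, the gene of matrilysin, read 32.6, 225 and 42.5, or 6.90-fold and 1.30-fold higher. Of its other probe sets, 11744031_at read 23.1, 260.3 and 34.0, at least 10.0-fold higher with siRNA 1, and 11744030_a_at read 13.2, 155 and 18.5, at least 5.97-fold higher. In all 3 the siRNA 1 array stood alone. SOX9, a transcription factor of progenitor cells, read 71.0, 220.3 and 104, while its other probe sets stayed at 12.4 to 28.4. TNFRSF19, a TNF receptor family gene, read 73.5, 238 and 143, and 20.2, 45.5 and 37.7 in a second probe set, higher in both libraries in each. BIRC5, the survivin gene, which is also expressed in dividing cells, was lower, at 867, 359 and 643, and all 11 of its measured probe sets were lower with siRNA 1. Of the rest, JUN had the highest mean difference (0.55 and 0.85, and 0.65 to 1.05 in 3 other probe sets) and MYC the lowest, at 1591, 1566 and 913, well below the control with siRNA 2 alone (-0.80, against -0.02 with siRNA 1).

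**Figure D5:**
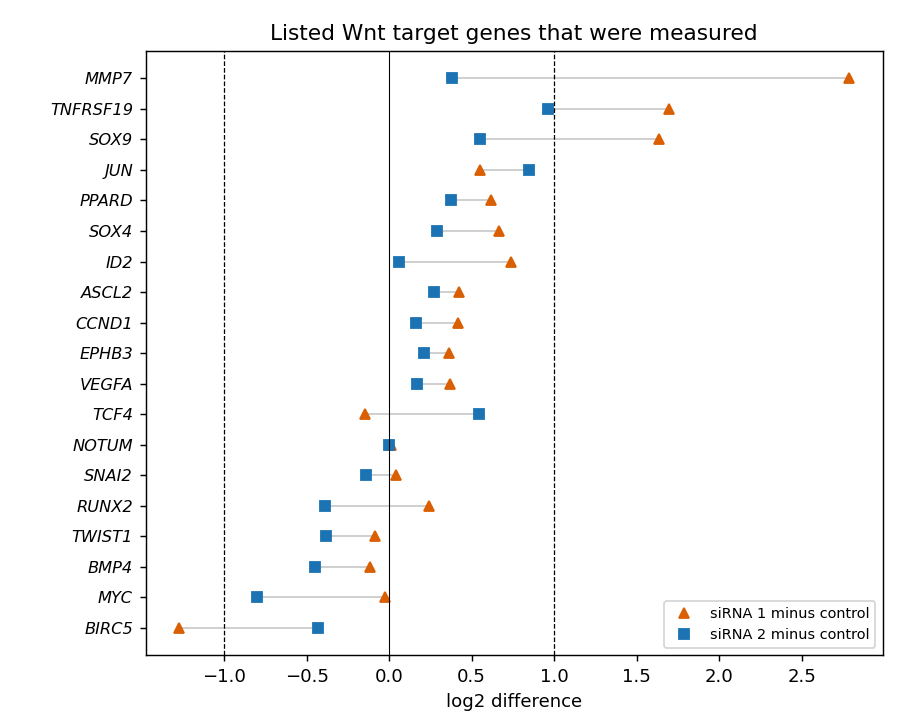
Log2 difference from the control for the 19 measured genes of the Wnt target list, triangles for siRNA 1 and squares for siRNA 2; dashed lines mark 2-fold. MMP7 (2.79 against 0.38), TNFRSF19 (1.70 against 0.96) and SOX9 (1.63 against 0.55) lie beyond 2-fold with siRNA 1 alone, and BIRC5 at -1.27 and -0.43.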

How the data were processed

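Total RNA of 3 cultures with the cell line label LNCaP was measured on Affymetrix 3′ expression arrays, 1 per group. The deposited values are probe set intensities on a linear scale, made by the authors with GCOS 1.4, per the submitters' processing notes; normalization and scaling are not given in the sources used here. Probe sets were named by the platform annotation: 44988 had 1 symbol, 1831 several and 2569 none, and only the first kind was used. Symbols of all 150 member probe sets matched RefSeq by gene ID. Intensities below the median of all table values (26.0) were raised to it, log2 values were taken from the deposited intensities, and the brightest probe set by mean log2 value stood for its gene. Genes above the floor on at least 1 array were compared, with calls at 2-fold, and 1.5-fold as an alternative.

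Other alternatives were floors at the 25th and 75th percentile, no floor, the mean of all probe sets, only plain probe sets and quantile normalization. Python 3.11.15, pandas 2.3.3 and numpy 2.4.6 were used. The calling step was tested on simulated data with less noise than these arrays and planted differences above 2-fold, which checked the code alone. With 1 array per group no test was possible, and precision is limited by the number of arrays. Members named were FZD4 with every probe set, members 2-fold or more from the control or between siRNAs, the brightest measured member of each role and the 10 with the largest mean absolute difference; other members are given by their intensities or range. Of the pathway and target lists, genes past 2-fold and the highest and lowest of the rest were named. The members and lists were chosen with earlier results of these data known.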

Additional observations from a re-analysis of the deposited data

How the results depend on the processing

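At 1.5-fold in place of 2-fold the members called were 4 with siRNA 1 (4 lower), 4 with siRNA 2 (4 lower), 2 with both (2 lower) and 3 between the siRNAs (3 higher with siRNA 1). With the mean of all probe sets of a gene these counts, at 2-fold, were 0 with siRNA 1, 0 with siRNA 2 and 0 with both, since both dim FZD4 probe sets then weighed on it. The number of members measured was 50 for a floor set to the 25th percentile, 14 for the 75th and 13 with plain probe sets only, against 33. Under the 75th percentile floor of 120.7, both siRNA values of FZD4 probe set 11719012_at fell below the floor and were raised to it. Its difference was then -1.0 with siRNA 1 and -1.0 with siRNA 2. Without a floor, 11719013_at differed by 0.44 with siRNA 1 and 11719014_s_at by -0.57 with siRNA 2, at intensities under 10. The median difference of the members ranged from -0.19 to 0.10 with siRNA 1, positive only under the 75th percentile floor, and from -0.11 to -0.02 with siRNA 2. Of 166 alternative values of 17 named genes, 151 lay within the spread between the siRNA arrays of the reported value and 15 did not; 1 changed sign, LRP6 with siRNA 2. No paired analysis was possible because each group holds 1 array.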
